A study of Rattus norvegicus with 10 samples.

Results

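Among the iron and metal handling genes asked for, ceruloplasmin and the transferrin receptor could be followed in liver RNA of rats after a burn injury. Of 6 genes asked for (Cp, Tf, Tfrc, Fth1, Ftl1 and Mt1), only Cp, with 3 probe sets, and Tfrc, with 1, had a probe set for which the probe table of the array names that gene alone. These are 2 of 4736 genes named alone by a probe set, and 4 of 8799 probe sets. The other 4 genes occur in the table only on 7 probe sets listed with further genes. Nothing is reported here for Tf, Fth1, Ftl1 or Mt1 as genes. All 4 probe sets of Cp and Tfrc passed the filter on dim probe sets, which asked for a signal brighter than the array median on 2 or more arrays.

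The series has 10 arrays of rat liver total RNA, 2 from control rats that had a sham procedure, labelled 0 h, and 2 each from rats 1, 4, 8 and 24 h after the burn. The labels give no strain, sex, age or burn size, do not say what the sham procedure was, and leave unstated whether paired arrays of one group hold RNA of different rats. The p-values below thus reflect array-to-array spread, possibly technical. Array medians ran from 100.1 to 131.1, arrays of a group correlated at 0.9478 to 0.9548 and arrays of different groups at up to 0.9405. All 8 hepatocyte markers looked at were detected, and albumin (Alb) lay between 42718.7 and 94416.8 on every array. In whole liver, fewer cells of a type and less RNA per cell cannot be told apart. No sham array is labelled with a later time, so effects of the burn and of the time of sampling cannot be told apart either.

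Ceruloplasmin is a copper protein that hepatocytes secrete. It oxidizes ferrous iron so that iron leaving cells can be loaded on transferrin, and it is known as an acute phase protein. Transferrin receptor 1, the product of Tfrc, takes iron-loaded transferrin into cells. Its mRNA carries iron responsive elements, to which the iron regulatory proteins Aco1 and Ireb2 bind and which protect it from decay when iron in the cell is low.

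Cp rose at 8 h after the burn on 1 of its 3 probe sets and lay above sham on the other 2 without passing the test. All 3 also lay above sham at 1 h and were lower at 4 h than at 1 h or 8 h. Tfrc ran a different course, lowest at 1 h and highest at 4 and 8 h. In the F test over the 4 burn times, which asks whether any burn time differs from sham, all 4 probe sets passed (limma, adjusted p = 0.00887, 0.00512 and 0.0303 for Cp on L33869_at, rc_AA817854_s_at and Y12178_at, and 0.0367 for Tfrc), where 15.4% of the 5253 probe sets tested passed. L33869_at and rc_AA817854_s_at passed with any array left out. Y12178_at did not pass without any one array other than the first 1 h array (adjusted p of 0.0519 to 0.0925), nor Tfrc without the second 1 h array or any one 4 h, 8 h or 24 h array (0.0565 to 0.094), nor with the floor at the 10th percentile (0.0581) or no filter (0.0878).

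On L33869_at, Cp had an intensity of 7057.5 and 7052.4 on the sham arrays, 10548.4 and 9935.1 at 1 h, 7283.9 and 5976.6 at 4 h, 15081.9 and 14387.1 at 8 h, and 6063.7 and 6532.1 at 24 h. Both 8 h arrays lay above all other arrays, both 1 h arrays lay above those of sham, 4 h and 24 h, and the 4 h arrays lay on either side of sham. The mean was 14734.5 ± 491 at 8 h and 7055 ± 3.61 in sham liver (SD, n = 2 each), a 2.09-fold increase (log2 change 1.06, SE 0.16, 95% interval 0.69 to 1.44, adjusted p = 0.0212).

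On rc_AA817854_s_at, Cp had an intensity of 2536.2 and 2342 in sham liver, 3348 and 3022.2 at 1 h, 1983.9 and 1580.8 at 4 h, 4540.2 and 4028.3 at 8 h, and 1314.4 and 1417.9 at 24 h. No array of a group fell within the range of another group on this probe set, in the order 8 h, 1 h, sham, 4 h, 24 h. The name ending _s_at marks, on arrays of this make, a probe set whose probes can match more than one transcript. The mean was 4284.2 ± 362 at 8 h and 2439.1 ± 137 in sham liver (SD, n = 2 each), with a log2 change of 0.81 (SE 0.18, adjusted p = 0.0571).

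On Y12178_at, Cp had 409.6 and 407.3 in sham liver, 486.6 and 631.2 at 1 h, 329.8 and 291.9 at 4 h, 632.2 and 729.2 at 8 h, and 431.9 and 398.8 at 24 h. Here too the 8 h arrays were the highest. On this probe set the 4 h arrays were the lowest, while 24 h and sham overlapped. The mean was 680.7 ± 68.6 at 8 h and 408.5 ± 1.63 in sham liver (SD, n = 2 each), with a log2 change of 0.73 (SE 0.18, adjusted p = 0.0862).

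**Figure D1:**
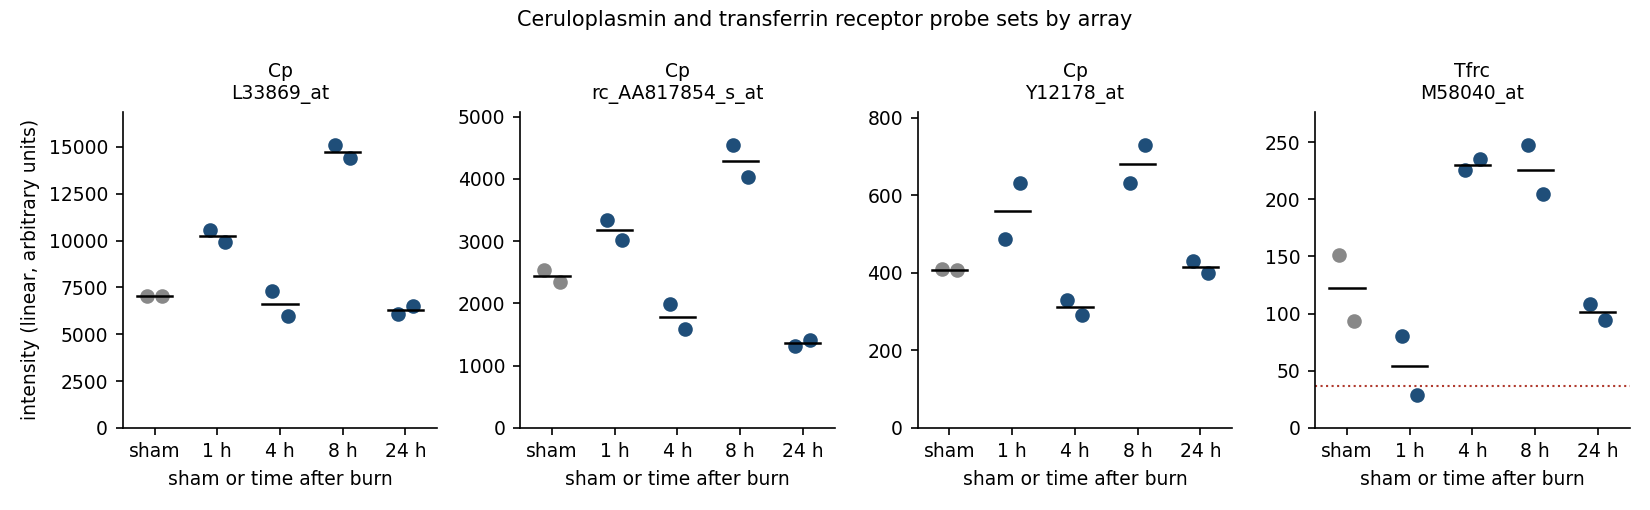
Intensity on a linear scale for each of the 10 arrays (points) of the 3 Cp probe sets and the Tfrc probe set, with bars at the mean of the 2 arrays of a group; the dotted line is the floor of 36.45. Cp is highest at 8 h on each probe set, with 14734.5, 4284.2 and 680.7 as means, and Tfrc is high at 4 and 8 h and lowest at 1 h.

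A single piece of sequence near the Cp start site is shown because C/EBP factors are known to act on acute phase genes of the liver, and its motif was chosen after the sequence was seen. The run below is from RefSeq (build GRCr8), chr2:104368587-104368616, plus strand, 83 to 54 bases before the start site of the table, and the capitals mark the match to TTNNGNAA, used as a C/EBP site.
Cp site: attatttactcTTGTGCAAcattaaattgt
This was the only match in the 250 bases before the start, where 37.2% of 33469 promoters of that length held 1 or more, on either strand. Both the start site of the table and the printed run lie inside the gene as annotated, chr2:104368336-104427119, so the run is not upstream of that gene model. TTCNNNGAA, used as a STAT site, was not in the window and was in 7.67% of promoters.

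At 8 h, 1 of the 4 probe sets of Cp and Tfrc passed the test, L33869_at, and 3 did not, where 3.54% of all tested probe sets passed and 1.56% passed as higher. The Cp log2 changes ran from 0.73 to 1.06, and on all 3 Cp probe sets both 8 h arrays lay above both sham arrays, as was so for 18.4% of probe sets. The call of L33869_at ended when any 1 of the sham or 8 h arrays was left out (adjusted p of 0.0825 to 0.0973, log2 changes of 1.03 to 1.10), and when the fit held just the 4 arrays compared (0.18). rc_AA817854_s_at passed with the floor at the 50th percentile, with no filter and with an intensity trend and robust variance (adjusted p = 0.0233, 0.0397 and 0.00583), and Y12178_at with that floor (0.0434).

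At 1 h the Cp probe sets lay above sham without passing the test. L33869_at averaged 10241.8 ± 434 at 1 h and 7055 ± 3.61 in sham liver (log2 change 0.54, SE 0.16, 95% interval 0.16 to 0.91, adjusted p = 0.227). The log2 changes of rc_AA817854_s_at and Y12178_at were 0.38 and 0.44 (SE 0.18 each, adjusted p = 0.448 and 0.408). On all 3, both 1 h arrays lay above both sham arrays, as was so for 21.8% of probe sets. Of the 4 probe sets of Cp and Tfrc limma called 0 at 1 h, with 3 at an unadjusted p under 0.05, where it called 1.45% of all. With an intensity trend and robust variance L33869_at passed (adjusted p = 0.0338).

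At 4 h the Cp log2 changes were -0.10 on L33869_at, -0.46 on rc_AA817854_s_at and -0.40 on Y12178_at (adjusted p = 0.836, 0.236 and 0.335). Both 4 h arrays lay below both sham arrays on rc_AA817854_s_at and Y12178_at, where 25.9% of probe sets did so. Limma called 0 of the 4 probe sets at 4 h, with 2 at an unadjusted p under 0.05, where it called 4.38% of all.

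The 3 Cp probe sets parted at 24 h. rc_AA817854_s_at fell, with a mean of 1366.2 ± 73.2 at 24 h and 2439.1 ± 137 in sham liver (SD, n = 2 each), 1.79-fold lower (log2 change -0.84, SE 0.18, 95% interval -1.25 to -0.42, adjusted p = 0.0274). L33869_at had a log2 change of -0.16 (95% interval -0.54 to 0.21, adjusted p = 0.583) and Y12178_at one of 0.02 (-0.41 to 0.46, adjusted p = 0.963). On both L33869_at and rc_AA817854_s_at the 24 h arrays lay below both sham arrays, as was so for 29.4% of probe sets. The Cp changes spanned 0.86 on the log2 scale at 24 h and 0.15 to 0.36 at the other times, and the difference between probe sets was not tested. The call was 1 of the 4 probe sets of Cp and Tfrc, where 10.4% of all passed and 6.4% passed as lower. It ended when any 1 of the sham or 24 h arrays was left out (adjusted p of 0.0903 to 0.129) and with only those groups in the fit (0.102).

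**Figure D2:**
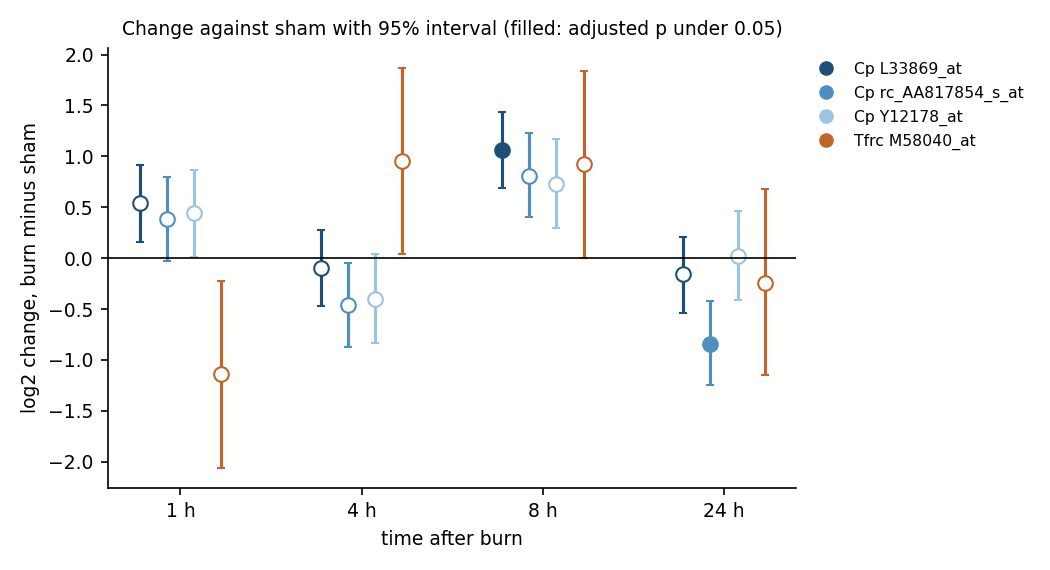
Log2 change of burn minus sham at each time with the 95% interval of the model, for the 3 Cp probe sets (blue) and Tfrc (brown); filled points passed at an adjusted p under 0.05. The Cp points move together at 1, 4 and 8 h, and at 24 h rc_AA817854_s_at lies at -0.84 with the other Cp probe sets at -0.16 and 0.02.

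The step from 4 h to 8 h was the Cp difference that passed on all 3 probe sets. L33869_at averaged 14734.5 at 8 h and 6630.2 at 4 h, a 2.23-fold difference (log2 1.16, SE 0.16, adjusted p = 0.00657). The ratio was 2.41 on rc_AA817854_s_at (log2 1.27, adjusted p = 0.00667) and 2.19 on Y12178_at (log2 1.13, adjusted p = 0.0129). Of all tested probe sets 8.17% passed between these times and 3.33% passed as higher at 8 h. The call of Y12178_at ended without either 4 h array or the second 8 h array (adjusted p = 0.0545, 0.0779 and 0.0708), and all 3 ended with only the 4 h and 8 h arrays in the fit (0.0914 to 0.0961).

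At 24 h Cp lay below 8 h on each probe set. The log2 difference of 24 h minus 8 h was -1.23 on L33869_at (adjusted p = 0.00431), -1.65 on rc_AA817854_s_at (0.00221) and -0.71 on Y12178_at, which did not pass (0.0506). Between these times 11.9% of all probe sets passed, 6% as lower. Between 24 h and 4 h none of the 4 probe sets of Cp and Tfrc passed by limma, with 1 at an unadjusted p under 0.05, where 5.73% of all passed. For 24 h against 8 h, rc_AA817854_s_at passed under each of the 18 other settings run (adjusted p up to 0.0436), and L33869_at under each but the fit of the compared groups alone (0.0549).

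From 1 h the later Cp differences were smaller or less steady. Between 24 h and 1 h, L33869_at differed by -0.70 (adjusted p = 0.034) and rc_AA817854_s_at by -1.22 (0.00624), while Y12178_at had -0.42 (0.2), where 12% of all passed. Between 4 h and 1 h, L33869_at had -0.63 (adjusted p = 0.0759) and Y12178_at -0.84 (0.0504). rc_AA817854_s_at differed by -0.84 (adjusted p = 0.0408), where 5.03% of all passed, and it did not pass with any single array left out (0.0616 to 0.194). L33869_at at 24 h against 1 h passed only without a 4 h array among the single arrays left out (0.0527 to 0.148 for the others), while rc_AA817854_s_at kept its call there with each of the 10 left out (up to 0.0494) and missed it with only these groups (0.0511). The levels ran in the order 8 h, 1 h, sham, 4 h, 24 h on L33869_at and rc_AA817854_s_at and 8 h, 1 h, 24 h, sham, 4 h on Y12178_at, and no neighbours in these orders differed past the threshold. For 8 h against 1 h the adjusted p was 0.117, 0.226 and 0.413 on the 3 probe sets in the order first given.

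Some marker sums of cell types moved with these Cp levels and others did not. The 8 hepatocyte markers were Alb, Ttr, Apoa1, Apoa2, Fgb, Serpina1, Tat and Cyp2c11. Alb and Serpina1 were the brightest, with medians over the arrays of 67461.45 and 61464.65, and Tat and Cyp2c11 the dimmest (8067.6 and 3692.2). Their sum weighs the bright genes of secreted proteins most and is not a count of hepatocytes. The summed intensity of 8 hepatocyte markers was 218000 to 257000 on the sham arrays, 244000 to 281000 at 1 h, 191000 to 231000 at 4 h, 294000 to 297000 at 8 h and 234000 to 255000 at 24 h. That of 10 exocrine pancreas markers, all on the array, was 8820 to 9470 in sham, 40600 to 42100 at 1 h, 2010 to 2190 at 4 h, 11900 to 12700 at 8 h and 1940 to 2320 at 24 h. Of these markers, Prss1, Prss2 and Cpb1 lay above the floor of 36.45 on only 6, 7 and 6 of the 10 arrays. The 4 macrophage markers on the array, of 8 listed, summed to 3420 to 3430 in sham, 3110 to 3540 at 1 h, 2770 to 3160 at 4 h, 3690 to 3760 at 8 h and 2420 to 2450 at 24 h. The stellate and endothelial sum was 2040 to 2390 in sham, 2850 to 3010 at 1 h, 2510 to 2520 at 4 h, 1890 to 2020 at 8 h and 1900 to 2000 at 24 h, below sham where Cp was highest. Both the hepatocyte and the macrophage sum were highest at 8 h, though the macrophage sum at 1 h overlapped sham, and the pancreas sum was higher at 1 h and 8 h than at 4 h and 24 h. Their part in the Cp result was not tested.

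Tfrc was read by M58040_at, with an intensity of 151.7 and 93.2 on the sham arrays, 80 and 28.7 at 1 h, 225.3 and 235.2 at 4 h, 247.2 and 204.8 at 8 h, and 108.1 and 94.3 at 24 h. The second 1 h array was under the floor of 36.45, the median over arrays of their 25th percentile, to which lower values were raised. The 4 h and 8 h arrays overlapped and lay above all others, the 1 h arrays lay below all others, and 24 h lay within the range of sham. Only the 4 h and 8 h arrays and the first sham array lay above the highest array median, 131.1. Tfrc thus passed the filter mainly through the groups where it was high, and its passing the filter lends no weight to the calls below. The 2 sham arrays differed by more than those of 4 h, with a mean of 122.4 ± 41.4 (SD, n = 2).

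The 250 bases upstream of Tfrc are printed from RefSeq (build GRCr8), chr11:81690319-81690568, minus strand, ending at the base before the annotated gene, chr11:81668478-81690318. They are shown as the promoter of the second gene measured, and no role of these motifs in the Tfrc levels was tested. Capitals mark ACGTG, the core of a hypoxia response element and chosen after the sequence was seen, and TGCNCNC, the metal response element bound by Mtf1.
Tfrc upstream: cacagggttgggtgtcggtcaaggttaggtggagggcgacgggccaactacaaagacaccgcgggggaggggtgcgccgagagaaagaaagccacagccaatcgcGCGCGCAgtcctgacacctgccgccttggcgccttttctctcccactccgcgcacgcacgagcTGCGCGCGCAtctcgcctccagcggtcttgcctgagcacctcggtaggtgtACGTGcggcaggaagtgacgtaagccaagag
ACGTG was found once, 31 bases before the start, and stood in 16.6% of the 33469 promoters. TGCNCNC was found 3 times, at 145, 82 and 79 bases before the start, the last 2 overlapping on opposite strands, and stood in 43.4% of promoters. TGANNNNGC (antioxidant response element) was in neither window and in 34.7% of promoters.

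Tfrc rose between 1 h and 4 h by a factor of 4.26, with means of 230.2 ± 7 at 4 h and 54.4 ± 36.3 at 1 h (SD, n = 2 each, log2 difference 2.09, SE 0.39, adjusted p = 0.0265). The difference between 8 h and 1 h was of like size (4.17-fold, log2 2.06, SE 0.39, adjusted p = 0.0335), where 4.57% of probe sets passed. Both sizes depend on the floor, since a 1 h array lay under it: with the floor at the 50th percentile the log2 differences were 0.92 and 0.89 (adjusted p = 0.0108 and 0.0143). Without that array they were 1.52 and 1.49 (adjusted p = 0.0955 and 0.121). Neither passed with no filter (0.0615 and 0.063), without either 4 h array (0.0581 to 0.145) or without either 24 h array (0.0531 to 0.0634), nor the second without either 8 h array (0.127 and 0.105). With only the groups compared the adjusted p was 0.144 and 0.175.

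Against sham, no Tfrc difference passed. The log2 change was -1.14 at 1 h (95% interval -2.06 to -0.22, adjusted p = 0.295), 0.95 at 4 h (0.04 to 1.87, 0.265), 0.92 at 8 h (0 to 1.84, 0.268) and -0.24 at 24 h (-1.15 to 0.68, 0.768). Both 4 h and both 8 h arrays lay above both sham arrays, as was so for 20.2% and 18.4% of probe sets, and both 1 h arrays lay below, as for 21.1%. With the floor at the 50th percentile the 4 h and 8 h changes were 0.76 and 0.73 and passed (adjusted p = 0.0267 and 0.0346), while the 1 h change was -0.16 (0.741). The 1 h change was -1.67 without the first 1 h array and -0.57 without the second. Without the first sham array the 4 h and 8 h changes were 1.30 and 1.27, and without the second 0.60 and 0.57. In the order 4 h, 8 h, sham, 24 h, 1 h no neighbours differed past the threshold (adjusted p = 0.977, 0.268, 0.768 and 0.19). Of the 9 erythroid markers, 5 were on the array, and their sum was 51000 to 53300 in sham, 62400 to 71800 at 1 h, 39700 to 44300 at 4 h, 40600 to 47600 at 8 h and 40500 to 44200 at 24 h. It was highest at 1 h, where Tfrc was lowest, and its part in the Tfrc levels was not tested.

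The wider iron and heme list had 35 genes, of which 16 had a probe set of their own, all tested. Each gene stands by its brightest probe set. At 1 h limma called 0 of the 16, with 3 at an unadjusted p under 0.05, at 4 h it called 2 as higher, at 8 h 4 and at 24 h 2, and it called none as lower. Over all tested probe sets it called 1.45%, 4.38%, 3.54% and 10.4% at these times, so the 2 of 16 at 24 h lie near the overall share. The list was chosen with earlier results of these data known, so a larger share at 4 h or 8 h says nothing about iron and heme genes as a set. In time order the median log2 changes were 0.17, -0.01, -0.12 and 0, beside 0.01, -0.03, -0.10 and -0.05 over all tested probe sets.

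At 4 h the genes that rose were a heme-degrading and a heme-making enzyme. Hmox1, the heme oxygenase that frees iron from heme, had 4919.4 and 5303.9 at 4 h on rc_AI179610_at, against 401.7 and 550.7 in sham liver (log2 change 3.44, SE 0.24, adjusted p = 0.00046). It was also higher at 8 h (log2 change 1.38, adjusted p = 0.0341) and 24 h (2.59, adjusted p = 0.00123). Alas1, which starts the making of heme, had 5256.7 and 5105.7 at 4 h on J03190_g_at, against 1059.2 and 1291.5 (log2 change 2.15, SE 0.23, adjusted p = 0.00281). A second Alas1 probe set, J03190_at, passed at 4 h and also at 8 h (log2 changes 2.83 and 1.52, adjusted p = 0.00228 and 0.0433), where J03190_g_at had 1.06 (0.0593). Hmox1 and Alas1 were highest at 4 h, where no Cp probe set passed.

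At 8 h, with Cp, 3 secreted binding proteins rose. Hp, haptoglobin, which binds free hemoglobin, had 83924.3 and 89595.9 at 8 h, against 44163.1 and 47581.8 in sham liver (log2 change 0.92, SE 0.16, adjusted p = 0.033). Hpx, hemopexin, which binds heme, had 63266.2 and 69556.7, against 30694 and 36538.2 (log2 change 0.99, SE 0.18, adjusted p = 0.0363). Lcn2, which binds bacterial iron carriers, had 4129.7 and 4016.7 at 8 h and 329.2 and 362.1 at 24 h, against 104.1 and 25.5 in sham liver, the last under the floor (log2 changes 6.05 and 2.49, adjusted p = 0.00366 and 0.0243). These sizes depend on the floor and on the sham arrays: the 8 h change was 5.07 with the floor at the 50th percentile, 6.84 without the first sham array and 5.29 without the second. After quantile normalization Hp and Hpx had log2 changes of 0.56 and 0.66 and did not pass (adjusted p = 0.102 and 0.0637). The 8 h call of Hpx ended with any 1 of the 10 arrays left out (0.0508 to 0.168), that of Hp with any but the first 4 h array (0.0506 to 0.147), and that of Hmox1 with any but a 1 h array (0.0616 to 0.15). The 24 h call of Lcn2 ended without the second sham array (log2 change 1.73, adjusted p = 0.0713, against 3.28 without the first) or either 24 h array (0.0905 and 0.11).

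Transport and sensing genes of iron did not pass at any time. Slc40a1, ferroportin, which exports iron, had a log2 change of -0.57 at 4 h (adjusted p = 0.196). Slc11a2, the iron importer DMT1, stayed between -0.24 and 0.02. Hfe, which acts in iron sensing, stayed between -0.27 and 0.41 on AJ001517cds_at. The other Hfe probe set, AF008587_s_at, had -0.77 at 24 h (adjusted p = 0.112). For the iron regulatory proteins, Ireb2 had -0.49 at 4 h and -0.45 at 8 h (adjusted p = 0.348 and 0.363) and Aco1 0.27 at 8 h (0.532). A p above the threshold with 2 arrays a group does not show that these genes did not change.

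**Figure D3:**
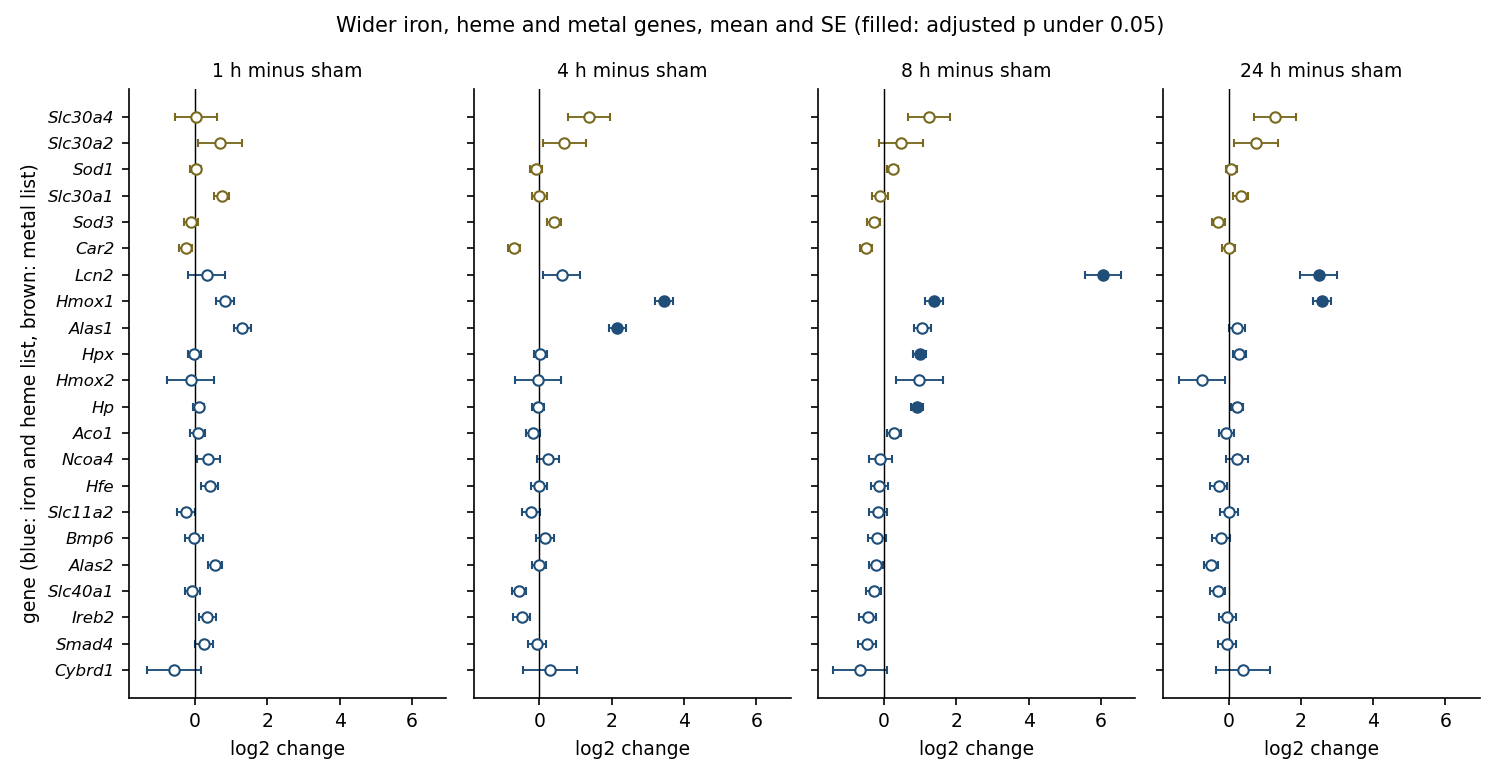
Log2 change of burn minus sham with SE for the 22 tested genes of the wider iron and heme list (blue) and metal list (brown), 1 panel per time; filled points passed at an adjusted p under 0.05. Filled points are Hmox1 and Alas1 at 4 h, Lcn2, Hmox1, Hpx and Hp at 8 h, and Hmox1 and Lcn2 at 24 h.

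Of 19 genes of the metal list, 11 had a probe set of their own and 6 were tested, and limma called none of the 6 at any time by its brightest probe set, with 1, 2, 1 and 0 at an unadjusted p under 0.05 at 1, 4, 8 and 24 h. With 1.45% to 10.4% of all tested probe sets called, no call among 6 is near the overall share. Slc30a1, a zinc exporter known as a target of Mtf1, had a log2 change of 0.74 at 1 h (adjusted p = 0.219). Sod1, the copper and zinc superoxide dismutase, gave conflicting signals. Its brightest probe set, M21060_s_at, had -0.09 at 4 h (adjusted p = 0.848), while M25157mRNA_i_at had 2426.2 and 3318.2 at 4 h against 6607.5 and 6539.6 in sham liver (-1.21, adjusted p = 0.0174) and Y00404_s_at 7404.5 and 10215.7 against 3438.7 and 3659.4 (1.29, adjusted p = 0.0162). No direction for Sod1 follows from these 3 probe sets.

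The genes nearest to Cp and Tfrc in course were found by the root mean square difference of log2 values, each centred on its own mean, over the 10 arrays. Of 4313 probe sets named for 1 other gene, the closest to Cp on L33869_at were Oas1a (0.185), Grn (0.207) and Dbi (0.212), where the median probe set stood at 0.639. Oas1a is an interferon-induced enzyme, Grn encodes the precursor of granulins, and Dbi encodes a binding protein of acyl-CoA. The 8 h mean of each was above sham (1008.8 and 653.5 for Oas1a, 2346.7 and 1577.6 for Grn, 6973.5 and 4700.9 for Dbi), but limma called none of the 3 against sham at 8 h (adjusted p = 0.112, 0.092 and 0.107). Like L33869_at, all 3 passed as higher at 8 h than at 4 h (0.044, 0.041 and 0.0304) and lower at 24 h than at 8 h (0.0161, 0.0165 and 0.0275). Picked for their likeness to Cp, they are no separate support for these steps. The closest to Tfrc were Cyp17a1 (0.341), Vars1 (0.453) and Fstl1 (0.466), beside a median of 0.964. Cyp17a1, a steroid hydroxylase gene, was 2.08-fold and 2.30-fold higher at 4 h and 8 h than in sham liver (adjusted p = 0.0207 and 0.0217). At these times Vars1 had log2 changes of 0.08 and 0.12 (adjusted p = 0.946 and 0.9) and Fstl1 0.47 and 0.23 (0.778 and 0.879). Neither passed. Fstl1 differed widely between the 1 h arrays, with 332.7 and 83.3.

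**Figure D4:**
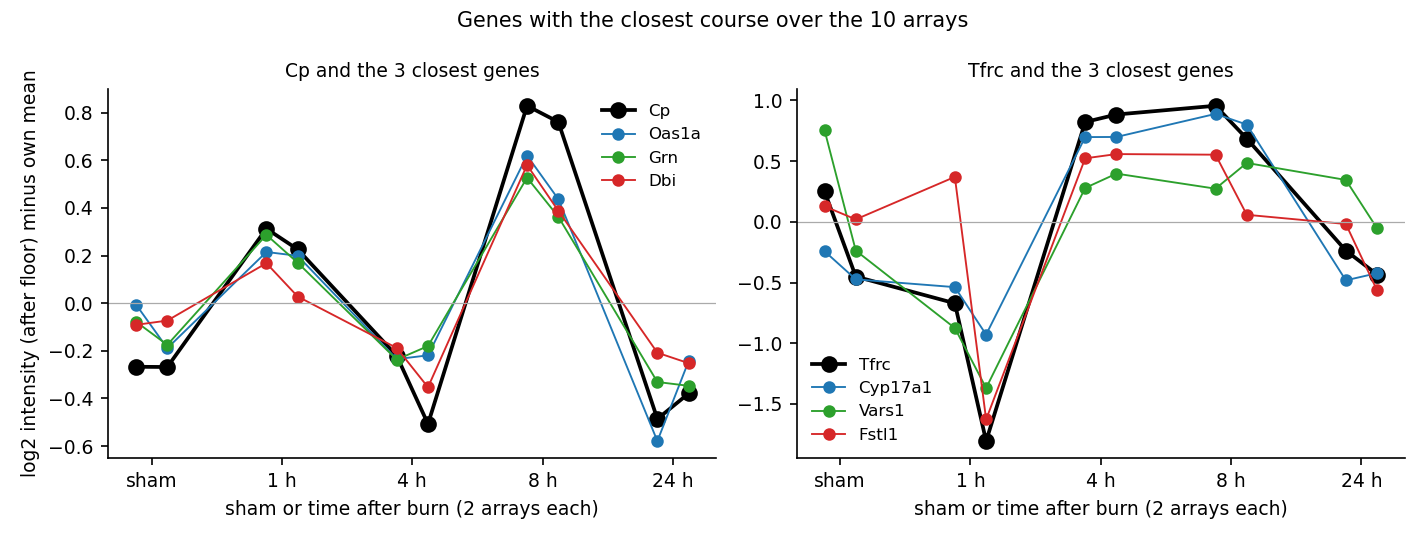
Log2 intensity minus its own mean for each of the 10 arrays, for Cp (L33869_at) and for Tfrc (black) with the 3 closest genes each (coloured); lines join the arrays in the order of the times. Cp and its neighbours lie above their own mean on both 1 h and both 8 h arrays, and Tfrc and its neighbours are lowest on the second 1 h array.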

How the data were processed

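Liver total RNA was measured on 10 one-colour oligonucleotide arrays. The deposited values are an intensity per probe set on a linear scale. The software and steps that made them are not given in the sources used here. In the deposited files a mean trimmed by 2% per end was 500.9 to 501 for each array, so they had been scaled between arrays. Gene names come from the array's probe table, in which 7018 of 8799 probe sets have 1 symbol, 308 have several and 1473 are not listed.

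The 59 control probe sets were left out. Values under 36.45, the median over arrays of their 25th percentile, were raised to it, and log2 was taken. The 5253 probe sets above the median of their own array on at least 2 arrays were tested with limma 3.58.1 in R 4.3.3, in 1 fit of 5 groups with 5 residual degrees of freedom and no covariate. P-values were adjusted by Benjamini-Hochberg over all of them within each comparison, with a call at an adjusted p under 0.05. The number of arrays limits the precision. The burn times share the sham arrays.

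Every probe set whose single symbol was a member was named. Wider-list genes were represented by their brightest probe set, and those that passed against sham were named, with transport and sensing genes and second probe sets added after their values were seen. The 3 closest genes had the smallest root mean square difference of centred log2 values, among all tested probe sets with a single symbol that was not a member. They were sought for members with a range of group means of at least 0.5 on the log2 scale. RefSeq upstream windows of 250 bases (GRCr8) were searched on both strands for 6 motifs, 3 of them added after the sequences were seen. CAGTG, the loop of an iron responsive element, is a feature of mRNA, and its search is not reported. The members and lists were chosen with earlier results of these data known. Alternatives were quantile normalization, floors at the 10th and 50th percentile, a robust variance with an intensity trend, no filter, each array left out, a fit of the compared groups alone, a block for the replicate number, and, chosen after seeing the data, the control probe sets kept.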

Additional observations from a re-analysis of the deposited data

Results flagged for a closer look

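By a limma test, the log2 level differed between 2 burn times in 10 cases, over 4 probe sets and 6 pairs of times. Of all tested probe sets, 4.57% to 12% passed per pair. The 3 Cp probe sets read the same gene, so their cases are not separate results. Each difference is the later minus the earlier log2 level. For Cp on L33869_at the difference was -0.70 for 24 h against 1 h, 1.16 for 8 h against 4 h and -1.23 for 24 h against 8 h. For Cp on rc_AA817854_s_at it was -0.84 for 4 h against 1 h, -1.22 for 24 h against 1 h, 1.27 for 8 h against 4 h and -1.65 for 24 h against 8 h. For Cp on Y12178_at it was 1.13 for 8 h against 4 h. For Tfrc it was 2.09 for 4 h against 1 h and 2.06 for 8 h against 1 h.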

How the results depend on the processing

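Of 680 values of 38 single results under the alternatives, 560 kept their direction and side of the threshold, 110 no longer passed, 7 newly passed and 3 changed sign. Many of the 38 had not passed as reported and had no call to lose. The 110 all fall on the results that had passed, so the 560 overstate how steady the calls were. The sign changes were Cp on L33869_at at 4 h (0.05 without the second 4 h array, -0.24 without the first), Cp on Y12178_at at 24 h (-0.03 without the first 24 h array, 0.08 without the second) and Tfrc at 24 h (0.12 without the first sham array, -0.59 without the second). With the floor at the 50th percentile, calls over all probe sets were 133 at 1 h, 374 at 4 h and 311 at 8 h, against 76, 230 and 186 as reported, and calls among the 4 Cp and Tfrc probe sets were 1 at 4 h and 4 at 8 h. With an intensity trend and robust variance they were 140, 381, 375 and 833 (544 as reported) at 1, 4, 8 and 24 h and 1252 in the F test (809 as reported), with 1 of these 4 called at 1 h and 2 at 8 h. With no filter 2 of the 4 were called at 8 h. With only the groups compared limma called 0 at 1 h (573 at an unadjusted p under 0.05), 69 at 4 h, 0 at 8 h (774) and 104 at 24 h, and calls among the 4 were 0 at 8 h, 0 at 24 h and 1 over the pairs of burn times, against 10. Leaving out 1 array gave 26 to 76, 117 to 222, 27 to 113 and 224 to 495 calls at the 4 times and 447 to 635 in the F test. Calls among the 4 were then 0 to 0 at 1 h and 4 h, 0 to 1 at 8 h and 24 h, 2 to 4 in the F test and 6 to 9 over the pairs. The replicate block gave 72, 241, 155 and 582 calls and 834 in the F test, and changed no call of Cp or Tfrc. The labels do not state a pairing by number. Deviations of same-numbered arrays correlated at 0.012 to 0.17 over 10 pairs of groups (median 0.0907, 5 above 0.1), all above 0. These pairs are drawn from the same 5 groups and are not independent. The cause of these correlations and of the shifts in calls was not tested.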

Other observations

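Probe sets listed with several genes cannot be assigned to one. The 3 listed for Srprb and Tf had log2 changes of 0.35, 0.35 and 0.34 at 8 h (limma, adjusted p = 0.384, 0.316 and 0.399). The probe set listed for Fth1 and Fth1-ps5 had 0.42 at 4 h (adjusted p = 0.217), with means of 6782.4 ± 649 at 4 h and 5057.1 ± 91.6 in sham liver (SD, n = 2 each). The 2 probe sets listed for Ftl1 with related genes and Ripor2 had -0.43 and -0.35 at 8 h (adjusted p = 0.204 and 0.296). They were higher at 24 h than at 8 h by 0.73 and 0.68 (adjusted p = 0.024 and 0.0359), where 11.9% of all passed in either direction. Their means were 20816.1 and 18949.3 at 24 h and 12521.5 and 11876.8 at 8 h, the opposite direction to Cp. The names rc_AI231807_at and rc_AI231807_g_at share a stem, so these are not separate results. The probe set listed for Mt1, Mt1f and Ttr had 0.51 at 24 h (adjusted p = 0.131), and that listed for Mt1m and Mt2A 0.70 (adjusted p = 0.11). None of these 8 passed against sham.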
